A study of Mus musculus with 6 samples.

Results

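The genes of GABA and glycine signalling were followed in bulk RNA sequencing of mouse forebrain at embryonic day 15.5. They are 27 genes picked by symbol, out of 33084 gene identifiers in the deposited counts, and all 27 passed the filter on low counts that left 19403 genes for testing. The Dyrk1a+/- group held 3 forebrains with 1 copy of the kinase gene Dyrk1a inactivated, and the wt group 3 forebrains of the same line with both copies intact, all microdissected at embryonic day 15.5. The labels call the samples biological replicates and give neither strain background nor the part of Dyrk1a that was removed, so p-values measure the spread between these 6 samples. The Dyrk1a+/- libraries held 20682150, 25012356 and 18699434 counts, and the wt libraries 32865708, 25270710 and 27861000. Dyrk1a itself averaged 151 ± 6.28 CPM in Dyrk1a+/- and 174 ± 12.9 CPM in wt (SD, n = 3 each), where CPM is the count scaled to the TMM-adjusted library size. Its level in Dyrk1a+/- was 0.868 of that in wt, a log2 fold change of -0.20 (SE 0.079, edgeR unadjusted p = 0.0306, adjusted p = 0.59). Neurod6, a transcription factor of cortical projection neurons, was present at 244.9 CPM in Dyrk1a+/- and 247 CPM in wt, while the midbrain and hindbrain genes En1, En2, Pax2, Hoxa2, Hoxb2, Hoxb3 and Hoxb4 had at most 23 counts in any library. Of the 8 forebrain genes listed, Neurod6 among them, 6 were higher in Dyrk1a+/- and 2 lower. Lhx2 and Otx1 were higher with no overlap between genotypes, as were 6.53% of all tested genes.

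GABA is made from glutamate by glutamic acid decarboxylases, loaded into vesicles, and sensed by GABA-A receptors, which are chloride channels of mixed subunits, and by GABA-B receptors, which act through G proteins. Glycine receptors are chloride channels of the same superfamily and share the scaffold gephyrin with GABA-A receptors. In embryonic neurons chloride tends to be high, because the importer NKCC1 dominates over the exporter KCC2, so that opening these channels can depolarise the cell. In the forebrain most GABA neurons are born in the ganglionic eminences, and those of the cortex migrate there tangentially.

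In Dyrk1a+/- forebrains none of the 27 genes differed from wt at an adjusted p under 0.05 (edgeR quasi-likelihood fit, Benjamini-Hochberg over all tested genes), where 0.0103% of all tested genes passed, and the lowest adjusted p was 0.503. DESeq2 also called 0 of them, against 0.0877% of the 30777 genes with an unadjusted p in its own fit. Some of these genes, Gabrd among them, got no adjusted p from DESeq2 and so could not be called. At an unadjusted p under 0.05 by edgeR there were 4 members, Gabrg3, Gabra5, Slc6a9 and Gabrb2, each with a log2 fold change below 0, and 0 in the other direction; the shares of all tested genes were 4.61% and 3.27%. Log2 fold changes (Dyrk1a+/- over wt) were below 0 for 23 of 27 members, where 48.8% of all tested genes had one, and the median was -0.13 for the members and 0.0048 for all tested genes. The 27 genes were chosen with earlier results of these data known, so these values only describe the list. All 9 GABA-A receptor subunits among the 27 were below 0, with a median of -0.28, whereas the genes that make, pack and break down GABA had a median of -0.045 and those of scaffold, assembly and trafficking -0.044. The summed level of the 9 subunits overlapped between genotypes, at 231 to 284 CPM in Dyrk1a+/- and 254 to 339 CPM in wt. Of the GABA-A receptor subunit genes tested from the list of other pathway genes, Gabrq had a log2 fold change of 0.22 (SE 0.118, edgeR adjusted p = 0.71). It was higher in all 3 Dyrk1a+/- libraries than in any wt library. Gabre stood at 0.0094 and Gabrr2 at -0.12. Genotypes did not overlap in 5 members, Gabrg3, Gabra5, Slc6a9, Slc12a5 and Gad1, all lower in Dyrk1a+/-; of all tested genes, 7.49% were lower and 6.53% higher with no overlap. In bulk tissue, fewer cells of a type and less RNA per cell cannot be told apart.

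**Figure D1:**
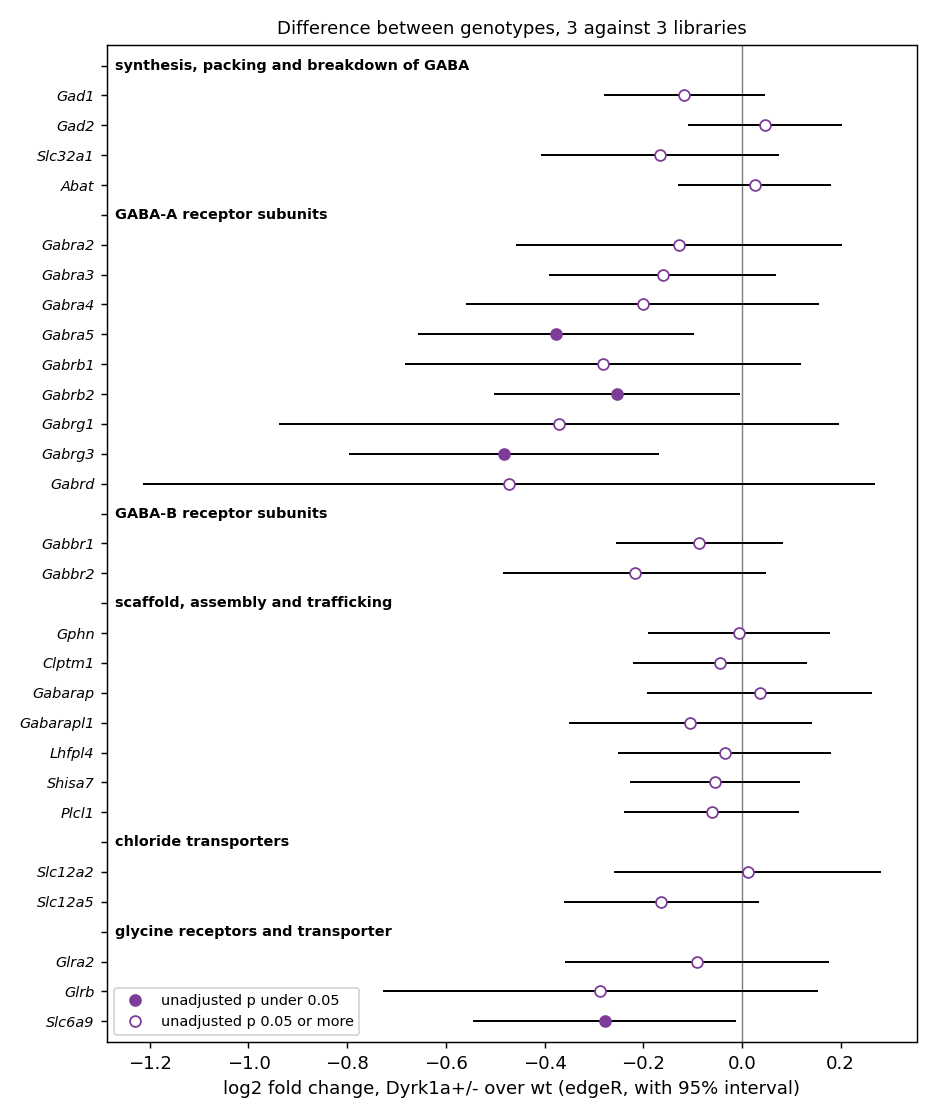
Log2 fold change of each gene between 3 Dyrk1a+/- and 3 wt libraries (x axis), with its 95% interval as a bar, grouped by role down the page; filled points have an unadjusted p under 0.05. The 9 GABA-A subunits plotted lie left of 0 (Gabrq, not plotted, was at 0.22), and the intervals of 4 genes, Gabra5, Gabrb2, Gabrg3 and Slc6a9, do not reach 0.

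Promoter sequences are shown for the 2 genes of lowest p, Gabrg3 and Gabra5, which lie side by side on chromosome 7, and for the 2 glutamic acid decarboxylase genes. The count ratio of the latter did not overlap between genotypes, by a narrow margin (exact 2-sided permutation p = 0.1, 0.2 adjusted). Each runs 5′ to 3′ from 250 bases before to 50 bases after the RefSeq start on GRCm38.p6, and capitals mark matches, on either strand, to the motifs searched. The motifs were the GC box GGGCGG, the TATA box TATAAA, the E-box CAGCTG, the homeodomain core TAATTA, the cAMP response element TGACGTCA, and TTCAGCAC and GGACAGCG from the left and right arms of the REST element.
Gabrg3, chr7:57387166-57387465, minus strand: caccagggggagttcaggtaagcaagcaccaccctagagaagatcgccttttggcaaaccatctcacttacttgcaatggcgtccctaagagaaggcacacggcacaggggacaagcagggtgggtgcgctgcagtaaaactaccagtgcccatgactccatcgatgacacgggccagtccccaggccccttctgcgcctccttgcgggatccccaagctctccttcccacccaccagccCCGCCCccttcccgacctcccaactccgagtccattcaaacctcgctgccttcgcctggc
Gabra5, chr7:57510010-57510309, minus strand: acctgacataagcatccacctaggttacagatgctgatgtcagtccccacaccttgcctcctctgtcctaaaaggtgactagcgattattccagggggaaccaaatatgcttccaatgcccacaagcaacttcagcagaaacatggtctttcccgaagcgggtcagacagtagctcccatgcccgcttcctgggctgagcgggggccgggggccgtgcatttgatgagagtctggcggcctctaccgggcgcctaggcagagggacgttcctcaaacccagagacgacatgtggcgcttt
Gad1, chr2:70561879-70562178, plus strand: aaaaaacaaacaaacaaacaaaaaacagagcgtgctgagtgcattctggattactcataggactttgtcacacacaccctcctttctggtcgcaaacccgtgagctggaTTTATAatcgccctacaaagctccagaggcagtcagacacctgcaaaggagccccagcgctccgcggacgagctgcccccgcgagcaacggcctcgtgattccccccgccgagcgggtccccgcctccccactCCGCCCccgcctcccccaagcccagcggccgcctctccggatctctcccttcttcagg
Gad2, chr2:22622077-22622376, plus strand: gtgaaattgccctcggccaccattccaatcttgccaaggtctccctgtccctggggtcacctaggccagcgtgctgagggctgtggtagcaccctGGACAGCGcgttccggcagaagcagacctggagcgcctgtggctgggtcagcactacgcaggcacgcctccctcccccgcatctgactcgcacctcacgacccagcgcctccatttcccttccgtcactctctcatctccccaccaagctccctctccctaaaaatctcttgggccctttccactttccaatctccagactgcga

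The window of Gabrg3 held a GC box and that of Gabra5 none of the 7 motifs. The Gad1 window held a TATA box and a GC box, and the Gad2 window the right-arm letters of the REST element. The GC content of the windows was 61.0% for Gabrg3, 56.7% for Gabra5, 60.0% for Gad1 and 61.3% for Gad2. Of the 27 genes 24 had RefSeq windows, 31 in all, and 18 of these held a GC box, which 35.7% of all 32851 windows did. A TATA box was in 5 of the 31 (13.6% of all windows), and the E-box, the homeodomain core and each REST arm were in 1 each (16.3%, 5.29%, and 1.17% and 1.26% of all windows for the left and right arm). No member window held the cAMP response element, which was in 1.79% of all. A match to these letters is a description and not a binding site; no 2 matches overlapped in the 4 windows shown.

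Of the genes that make, pack and break down GABA, Gad2 had the highest level per kb of exon, 20.9 ± 0.462 CPM per kb in Dyrk1a+/- and 20.2 ± 0.829 CPM per kb in wt, and Slc32a1 the lowest, 8.80 ± 0.876 CPM per kb in Dyrk1a+/- and 9.88 ± 0.761 CPM per kb in wt (SD, n = 3 each). Gad1 (chromosome 2, 70553072 to 70602014, GRCm38), the decarboxylase found throughout the neuron, had 103, 97.8 and 101 CPM in Dyrk1a+/-, against 115, 108 and 103 CPM in wt. The 3 Dyrk1a+/- values lay just below all wt values, and the log2 fold change was -0.12 (SE 0.071; edgeR adjusted p = 0.743). Gad2 (chromosome 2, 22622205 to 22693874), the decarboxylase concentrated at nerve terminals, had 120, 124 and 124 CPM in Dyrk1a+/-, against 116, 124 and 116 CPM in wt. Its values overlapped and its log2 fold change was 0.048 (SE 0.068; edgeR adjusted p = 0.917).

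Within each library the log2 ratio of Gad2 to Gad1 counts was 0.22, 0.35 and 0.30 in Dyrk1a+/-, against 0.011, 0.20 and 0.17 in wt. All 3 Dyrk1a+/- libraries lay above all wt libraries, by a narrow margin between Dyrk1a+/- replicate 1 and wt replicate 2. The means were 0.29 ± 0.064 in Dyrk1a+/- and 0.12 ± 0.10 in wt (SD, n = 3 each), a difference of 0.16 (exact 2-sided permutation p = 0.1, the smallest that 3 against 3 allow; 0.2 adjusted over the 2 ratios computed). Slc32a1, the vesicular transporter shared by GABA and glycine, had 21.8, 26.1 and 25.9 CPM in Dyrk1a+/-, against 25.2, 28.6 and 29.2 CPM in wt. These overlapped only through wt replicate 1, with a log2 fold change of -0.17 (SE 0.106; edgeR adjusted p = 0.75). Abat, the transaminase that breaks GABA down, stood at 112 ± 1.97 CPM in Dyrk1a+/- and 110 ± 4.59 CPM in wt (SD, n = 3 each), and the 95% interval of its log2 fold change was -0.13 to 0.18.

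**Figure D2:**
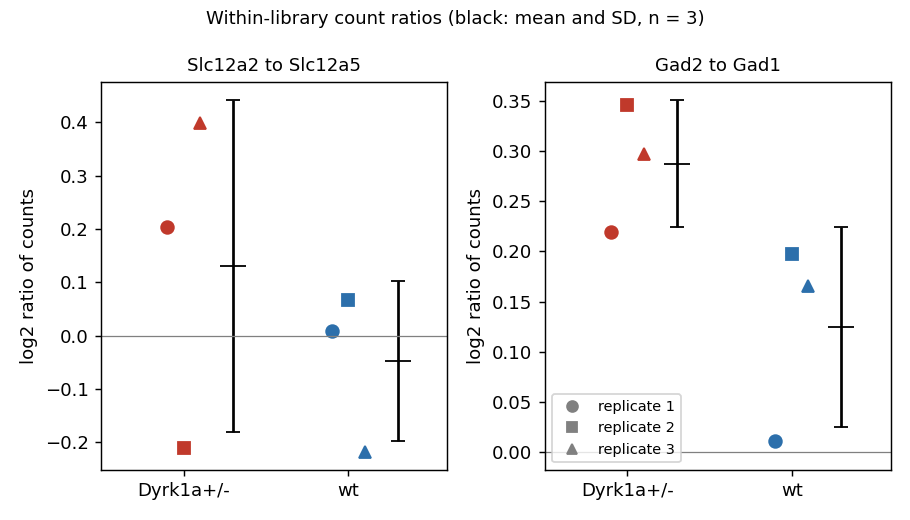
Log2 ratio of the counts of 2 genes within each library (y axis), Dyrk1a+/- left of wt, with replicates 1 to 3 as circle, square and triangle and the mean and SD in black. The Gad2 to Gad1 ratio runs from 0.22 to 0.35 in Dyrk1a+/- and from 0.011 to 0.20 in wt, while the Slc12a2 to Slc12a5 ratio overlaps between genotypes.

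Among GABA-A receptor subunits the lowest p values belonged to a neighbouring pair on chromosome 7. Gabrg3 (56716465 to 57387188), a gamma subunit, had 17.9, 15.7 and 13.4 CPM in Dyrk1a+/-, against 23.5, 23.5 and 18.8 CPM in wt. No Dyrk1a+/- value reached the lowest wt value, and Dyrk1a+/- stood at -0.48 relative to wt on the log2 scale (SE 0.138, 95% interval -0.79 to -0.17; edgeR unadjusted p = 0.00682, adjusted p = 0.503). Over all tested genes 261 had a lower p. Gabra5 (57407672 to 57510059), the alpha subunit known for extrasynaptic receptors of the hippocampus, had 19.7, 16.2 and 14.7 CPM in Dyrk1a+/-, against 21.8, 23.0 and 20.8 CPM in wt. Its groups did not overlap either, with a log2 fold change of -0.38 (SE 0.122 and 95% interval -0.65 to -0.10; edgeR unadjusted p = 0.0133, adjusted p = 0.526). Both genes lie on the minus strand with 20.5 kb between them. With 1 library left out, log2 fold changes ran from -0.59 to -0.39 for Gabrg3 and from -0.50 to -0.29 for Gabra5. Each was at an unadjusted edgeR p under 0.05 in all 6 fits, as were 4.11% to 10.5% of all tested genes. Neither passed the adjusted threshold in any of them. The fits share libraries, and both genes are singled out here for their low p, so this only describes them. The antisense transcript Gm9962 shares 148 exon bases with Gabra5 and had 252 counts over all libraries, against 2962 for Gabra5.

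Gabrb2, a beta subunit that is among the commonest in the adult brain, was the most abundant per exon length of the 9 subunits. It had 77.4, 68.8 and 71.4 CPM in Dyrk1a+/-, against 94.2, 92.6 and 72.3 CPM in wt. The groups overlapped through wt replicate 3 alone, and the log2 fold change was -0.25 (SE 0.109; edgeR unadjusted p = 0.0454, adjusted p = 0.628). It was not at an unadjusted p under 0.05 without wt replicate 1, wt replicate 2, Dyrk1a+/- replicate 2 or Dyrk1a+/- replicate 3, with log2 fold changes between -0.37 and -0.19 over the 6 fits.

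The 4 subunit genes of the chromosome 5 cluster, Gabrg1, Gabra2, Gabra4 and Gabrb1, had log2 fold changes of -0.37, -0.13, -0.20 and -0.28 (edgeR unadjusted p 0.172, 0.401, 0.233 and 0.145). Gabrg1 and Gabra2 are 115.0 kb apart and Gabra2 and Gabra4 473.9 kb, all on the minus strand, while Gabrb1 on the plus strand overlaps Gabra4 by 46 exon bases. Gabrb1 had 54.9, 38.8 and 37.0 CPM in Dyrk1a+/-, against 62.7, 53.5 and 42.6 CPM in wt. Gabra2, an alpha subunit abundant before birth, had 52.2, 40.0 and 53.7 CPM in Dyrk1a+/-, against 58.8, 57.0 and 43.3 CPM in wt. In both genes replicate 1 of Dyrk1a+/- was above wt replicate 3, so the genotypes overlapped. Gabrg1 had 13.7, 8.57 and 9.18 CPM in Dyrk1a+/-, against 17.8, 13.2 and 9.46 CPM in wt, the widest relative spread in wt of the 27 genes. Gabra4 averaged 13.9 ± 2.01 CPM in Dyrk1a+/- and 15.9 ± 2.59 CPM in wt (SD, n = 3 each).

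On the X chromosome Gabra3, an alpha subunit typical of immature neurons, had 32.8, 30.6 and 34.3 CPM in Dyrk1a+/-, against 40.3, 36.7 and 32.2 CPM in wt, with a log2 fold change of -0.16 (SE 0.101). Gabrd, the subunit of extrasynaptic receptors, was the lowest of the 27, at 0.531, 1.05 and 1.23 CPM in Dyrk1a+/-, against 1.495, 1.35 and 1.04 CPM in wt. Its lowest library held 11 counts and its 95% interval ran from -1.21 to 0.27 on the log2 scale. Shares of the 4 alpha subunits followed here were compared per kb of exon. Gabra3 took 36.8% ± 2.10 in Dyrk1a+/- and 35.4% ± 1.102 in wt, Gabra2 28.0% ± 2.35 in Dyrk1a+/- and 26.4% ± 1.53 in wt, and Gabra4 10.1% ± 0.646 in Dyrk1a+/- and 9.94% ± 0.604 in wt (SD, n = 3 each). Gabra5 took 27.2%, 26.8% and 21.3% in Dyrk1a+/-, against 25.9%, 28.4% and 30.4% in wt. These shares overlapped between genotypes and leave out other alpha subunit genes. Of those, Gabra6, in the list of other pathway genes, had at most 2 counts in any library and was not tested.

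**Figure D3:**
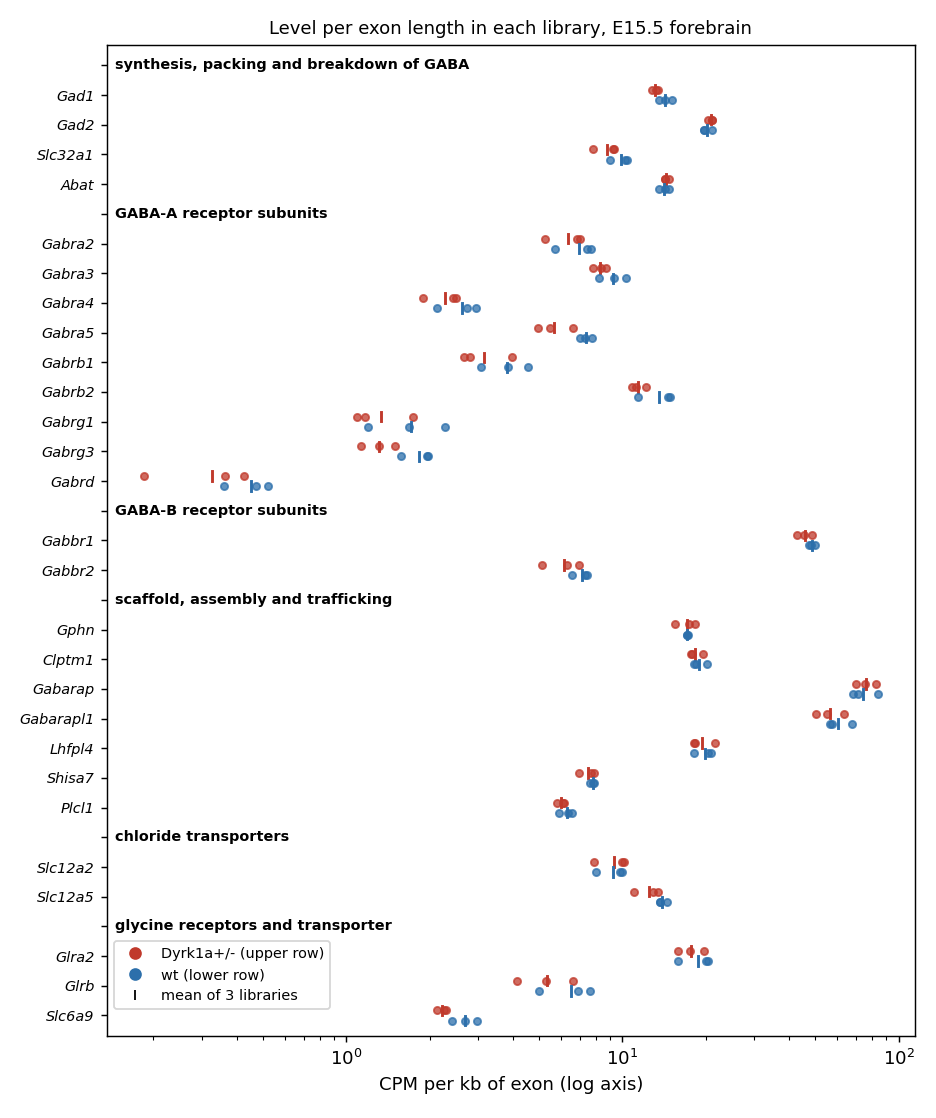
Level of each gene per exon length in each library (x axis, CPM per kb of exon, log scale), with Dyrk1a+/- on the upper and wt on the lower row of each gene and the mean of 3 libraries as a tick. Levels span from below 1 for Gabrd to above 50 for Gabarap and Gabarapl1, and the genotypes lie close together within each gene.

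The GABA-B receptor works as a dimer of Gabbr1, which binds GABA, and Gabbr2, which couples to the G protein. Gabbr1 stood at 45.7 ± 2.88 CPM per kb of exon in Dyrk1a+/- and 48.5 ± 1.24 in wt, and Gabbr2 at 6.12 ± 0.950 in Dyrk1a+/- and 7.12 ± 0.469 in wt (SD, n = 3 each). Gabbr1 was therefore the more abundant transcript of the dimer in both genotypes, on this scale. Gabbr2 had 46.7, 42.0 and 34.1 CPM in Dyrk1a+/-, against 49.9, 44.0 and 48.8 CPM in wt, with Dyrk1a+/- replicate 3 lowest and replicate 1 within the wt range. The log2 fold changes were -0.086 for Gabbr1 (SE 0.074; edgeR adjusted p = 0.823) and -0.22 for Gabbr2 (SE 0.117; edgeR adjusted p = 0.707).

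Scaffold, assembly and trafficking genes held the 2 highest levels of the 27, and their log2 fold changes lay between -0.10 and 0.036. Gabarap, a member of the ATG8 family named for its binding to the GABA-A receptor, was highest at 76.4 ± 6.38 CPM per kb in Dyrk1a+/- and 74.6 ± 8.36 in wt, followed by its autophagy paralog Gabarapl1 at 56.2 ± 6.86 in Dyrk1a+/- and 60.5 ± 6.15 in wt (SD, n = 3 each). These levels overlapped, and the order of the 2 genes was the same in both genotypes. Gphn, gephyrin, the scaffold under inhibitory synapses, had 68.8, 65.4 and 57.9 CPM in Dyrk1a+/-, against 64.2, 64.3 and 64.6 CPM in wt, with the wt values tightly grouped inside the Dyrk1a+/- range. Its 95% interval, -0.19 to 0.18 on the log2 scale, bounds a difference in either direction.

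Clptm1, which retains GABA-A subunits in the endoplasmic reticulum, Lhfpl4, which links the receptor to neuroligin, Shisa7, an auxiliary subunit, and Plcl1, an inactive phospholipase relative that binds GABARAP, had log2 fold changes of -0.044, -0.035, -0.054 and -0.061. Their levels were 114 ± 6.08, 113 ± 11.5, 49.8 ± 3.07 and 40.2 ± 1.39 CPM in Dyrk1a+/- and 118 ± 6.99, 115 ± 8.73, 51.7 ± 0.962 and 41.9 ± 2.27 CPM in wt (SD, n = 3 each). All 7 intervals in this role reached 0, and the widest was that of Gabarapl1, -0.35 to 0.14. Gabarapl1 shares 570 exon bases with 1700101I11Rik on the opposite strand, which had 95 counts against 17805.

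The chloride transporters did not separate the genotypes as a ratio. Slc12a2, the importer NKCC1, which choroid plexus and progenitors also express, had 111, 86.4 and 109 CPM in Dyrk1a+/-, against 108, 107 and 87.6 CPM in wt. The low value of each genotype came from 1 library, Dyrk1a+/- replicate 2 and wt replicate 3, and the log2 fold change was 0.012 (SE 0.118; edgeR adjusted p = 0.99). Slc12a5, the neuronal exporter KCC2, had 95.9, 100.01 and 82.3 CPM in Dyrk1a+/-, against 108, 102 and 102 CPM in wt. Its 3 Dyrk1a+/- values lay below all wt values, with a log2 fold change of -0.16 (SE 0.086; edgeR unadjusted p = 0.091, adjusted p = 0.702).

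Within libraries the log2 ratio of Slc12a2 to Slc12a5 counts was 0.20, -0.21 and 0.40 in Dyrk1a+/-, against 0.0086, 0.066 and -0.22 in wt. The difference in means was 0.18 with overlapping groups (exact 2-sided permutation p = 0.4; 0.4 adjusted over the 2 ratios). It was 0.044 without Dyrk1a+/- replicate 3, 0.093 without wt replicate 3 and 0.35 without Dyrk1a+/- replicate 2. Per kb of exon, Slc12a5 averaged 12.5 ± 1.25 CPM in Dyrk1a+/- and 13.95 ± 0.450 in wt, and Slc12a2 averaged 9.32 ± 1.23 in Dyrk1a+/- and 9.24 ± 1.06 in wt (SD, n = 3 each).

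Glycine receptor transcripts were present at this stage, led by the alpha subunit of embryonic receptors. Glra2 stood at 17.7 ± 1.89 CPM per kb of exon in Dyrk1a+/- and 18.8 ± 2.504 in wt, above each of the 9 GABA-A subunits followed here on that scale, with overlapping values between genotypes (log2 fold change -0.091, SE 0.117). Glrb, the beta subunit that binds gephyrin, had 30.8, 19.3 and 24.5 CPM in Dyrk1a+/-, against 35.5, 32.1 and 23.3 CPM in wt. Replicates 1 and 3 of Dyrk1a+/- were inside the wt range, and the log2 fold change was -0.29 (SE 0.194; edgeR adjusted p = 0.764). Slc6a9, the mainly glial glycine transporter, had 11.8, 10.9 and 11.6 CPM in Dyrk1a+/-, against 15.3, 13.9 and 12.4 CPM in wt. The groups did not overlap, with a log2 fold change of -0.28 (SE 0.117 and 95% interval -0.54 to -0.013; edgeR unadjusted p = 0.0414, adjusted p = 0.615). With 1 library left out it ran from -0.35 to -0.20 and was at an unadjusted p under 0.05 only without wt replicate 3. Slc6a9 shares 1429 exon bases with Ccdc24 on the opposite strand, which had 657 counts over all libraries against 1930 for Slc6a9, and the strand setting of the counting is not given in the sources used here.

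A pair of libraries, Dyrk1a+/- replicate 2 and wt replicate 3, was separated from the 4 other libraries along the main axis of variation over all tested genes, which held 40.4% of the variance. Structural RNAs (7SK with those of RNase P and RNase MRP) made up 4.002% of the counts in Dyrk1a+/- replicate 2 and 4.46% in wt replicate 3, and 2.57% to 3.01% elsewhere. Both libraries of the pair lay below all 4 others in 6 members, Gabra2, Gabra3, Gabra4, Glra2, Glrb and Slc12a2, and above all 4 in 5 members, Gabarap, Gabarapl1, Clptm1, Lhfpl4 and Shisa7. Over all tested genes these shares were 18.3% and 16.1%, so the members were near the background.

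The pair holds 1 library of each genotype, so the genotype difference was also read within it. Within the pair, 1 library against 1, 21 of 27 members had a log2 CPM difference below 0, with a median of -0.072. Within the 4 others 23 had one, with a median of -0.14, and 19 were below 0 in both. In an edgeR fit of the 4 others alone, the median log2 fold change of all tested genes was 0.0036. The shares of all tested genes below 0 in these readings were not computed. Both readings reuse libraries of the main fit, so these counts only describe the members. The differences were -0.26 and -0.60 for Gabrg3, -0.36 and -0.40 for Gabra5, -0.072 and -0.33 for Gabrb2, and -0.18 and -0.32 for Slc6a9, within the pair and within the 4 others. Gabrd moved most between the 2 readings, at 0.011 and -0.81. With a term for the pair in the edgeR fit, 9 members were at an unadjusted p under 0.05, where 15.7% of all tested genes were, namely Gad1, Gabra2, Gabra3, Gabra5, Gabrb2, Gabrg3, Slc12a5, Glrb and Slc6a9. None passed in that fit, whose lowest adjusted p among members was 0.137.

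**Figure D4:**
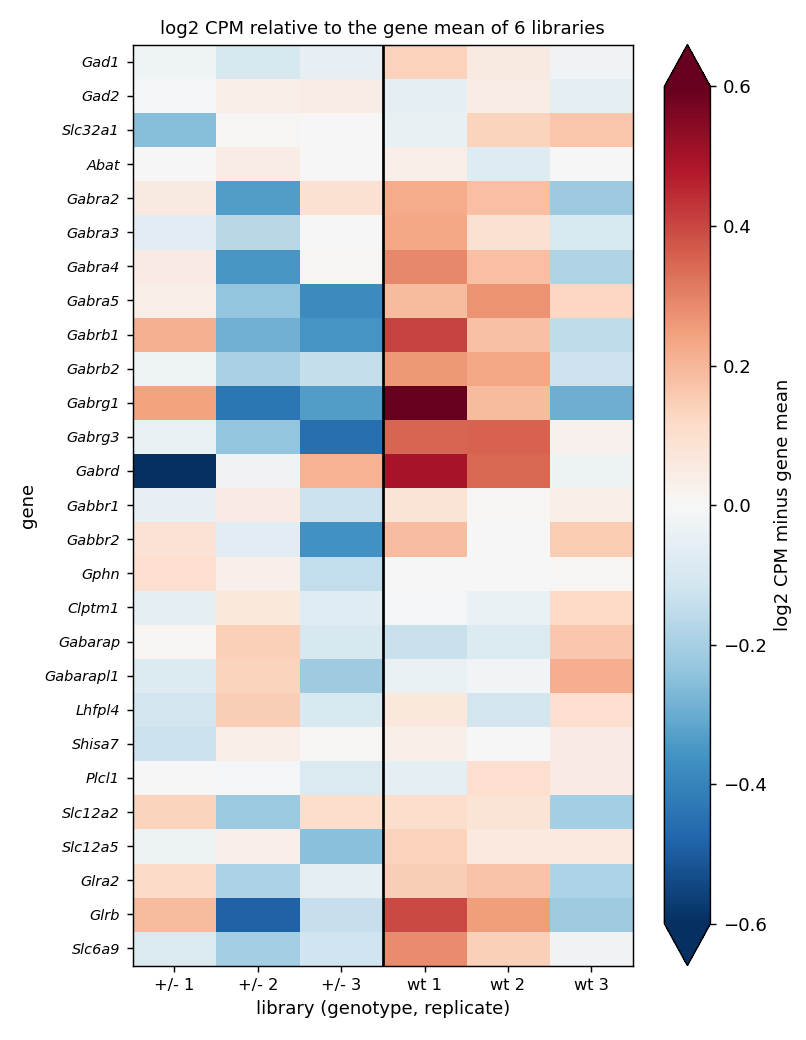
Log2 CPM of each gene relative to its mean over the 6 libraries (colour), with the 3 Dyrk1a+/- libraries left of the 3 wt libraries. GABA-A and glycine receptor rows are mostly red in wt replicates 1 and 2. They are mostly blue in the library pair, Dyrk1a+/- replicate 2 and wt replicate 3, although Gabra5 and Gabrg3 are not blue in wt replicate 3. Gabarap and Gabarapl1 are red in both libraries of the pair.

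**Figure D5:**
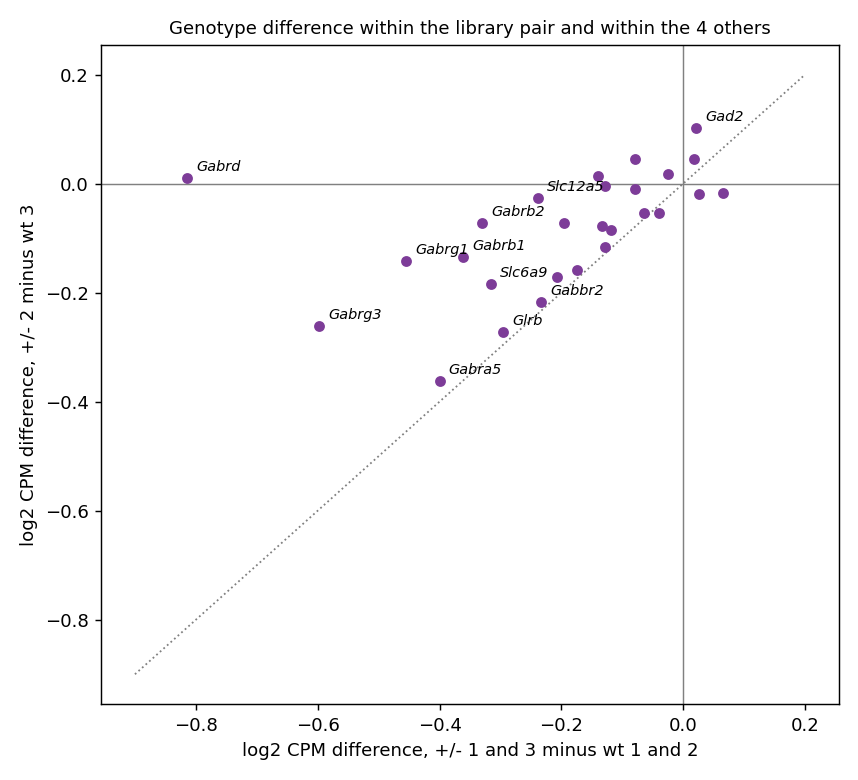
Genotype difference in log2 CPM of each gene within the 4 other libraries (x axis, Dyrk1a+/- replicates 1 and 3 minus wt replicates 1 and 2) and within the library pair (y axis, Dyrk1a+/- replicate 2 minus wt replicate 3); the dotted line marks equal values. Gabrg3 and Gabra5 are below 0 on both axes, at -0.60 and -0.26 and at -0.40 and -0.36, and Gabrd is at -0.81 and 0.011.

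Other genes of GABA and glycine handling, a list of 44 that is not complete, were read in the same fit. Of these 39 were tested, and 0 passed edgeR's test at an adjusted p under 0.05; 23 had a log2 fold change below 0 and 16 above, with a median of -0.031. At an unadjusted p under 0.05 were 4 lower genes (4.61% of all tested genes) and 2 higher ones (3.27%). The lower genes were the plasma membrane GABA transporters Slc6a11 and Slc6a13 and the GABA-B auxiliary subunits Kctd12 and Kctd16, and the higher ones Hap1, a partner of huntingtin in receptor transport, and Gldc, of the glycine cleavage system. Kctd16, Hap1, Gldc, Gabrq, Gabre, Gabrr2 and Gabra6 were named after their values were seen. Slc6a11 had 20.7, 26.0 and 17.4 CPM in Dyrk1a+/-, against 35.4, 31.7 and 33.6 CPM in wt. The groups were well apart, with a log2 fold change of -0.65 (SE 0.139; edgeR adjusted p = 0.483), and DESeq2 called this gene at an adjusted p of 0.0235. Kctd12 had 115, 91.7 and 89.4 CPM in Dyrk1a+/-, against 161, 152 and 117 CPM in wt, a log2 fold change of -0.54 (SE 0.139; edgeR adjusted p = 0.483). Slc6a13, which meningeal cells also express, averaged 17.7 ± 0.603 CPM in Dyrk1a+/- and 22.6 ± 2.56 CPM in wt (SD, n = 3 each; log2 fold change -0.36, SE 0.108; edgeR adjusted p = 0.512).

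Marker lists of the cells that could carry these transcripts differed in how they stood between the genotypes. Of 20 genes of the GABAergic lineage 7 had a log2 fold change below 0, with a median of 0.03, and their summed level was 579 to 659 CPM in Dyrk1a+/- and 578 to 594 CPM in wt. The neuropeptide genes Sst and Npy, markers of maturing interneurons, were the 2 at an unadjusted p under 0.05 (4.61% of all tested genes were, in that direction; edgeR; log2 fold changes -0.48, SE 0.114, and -0.45, SE 0.136; adjusted p 0.483 and 0.503). Sst averaged 10.9 ± 0.967 CPM in Dyrk1a+/- and 15.3 ± 1.00 CPM in wt, and Npy 5.94 ± 0.506 CPM in Dyrk1a+/- and 8.12 ± 0.828 CPM in wt (SD, n = 3 each). Of 15 general neuronal genes 11 were below 0 (median -0.11), with summed levels of 7269 to 7512 CPM in Dyrk1a+/- and 7719 to 8122 CPM in wt that did not overlap, and 4 were lower at an unadjusted p under 0.05, again beside 4.61% of all tested genes. The lowest p values were those of the neurofilaments Nefl (-0.28) and Nefm (-0.27) and the calcium sensor Syt1 (-0.26). Of 14 proliferation genes all 14 were above 0 (median 0.34), with summed levels of 1303 to 1627 CPM in Dyrk1a+/- and 1042 to 1168 CPM in wt. Of these 13 were at an unadjusted p under 0.05 (3.27% of all tested genes were, in that direction), 8 did not overlap between genotypes (6.53% of all), 0 passed edgeR's adjusted threshold, and DESeq2 called 3, Tpx2, Mki67 and Cenpf. The part of these shifts in the values of the GABA and glycine genes was not tested.

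Of 8 glutamatergic neuron genes 3 were below 0 (median 0.013), and of 10 radial glia genes 4 (median 0.17). The radial glia genes Hes1, Pax6 and Hes5 were higher at an unadjusted p under 0.05 by edgeR (3.27% of all tested genes were). The same 3 were higher with no overlap between genotypes (6.53% of all), and 1 radial glia gene was lower with none (7.49% of all). Choroid plexus genes, which bear on Slc12a2, were below 0 in 5 of 8 (median -0.053), with summed levels of 312 to 460 CPM in Dyrk1a+/- and 390 to 466 CPM in wt. Meningeal genes were below 0 in 6 of 8 (median -0.22), with summed levels of 401 to 446 CPM in Dyrk1a+/- and 472 to 553 CPM in wt. One of them, the prostaglandin D synthase gene Ptgds, fell to 14.7 ± 1.57 CPM in Dyrk1a+/-, against 32.6 ± 2.33 CPM in wt (SD, n = 3 each; log2 fold change -1.15, edgeR adjusted p = 0.0238). Oligodendrocyte precursor genes were below 0 in 4 of 5 (median -0.38), with 77.5 to 96.2 CPM in Dyrk1a+/- and 110 to 114 CPM in wt. Whether the meningeal and precursor lists, or the radial glia list with 6 of 10 genes above 0, bear on Slc6a9, Slc6a11 and Slc6a13 was not tested. Microglial genes were below 0 in 6 of 7 (median -0.15), endothelial genes in 4 of 5 (median -0.017) and erythroid genes in 5 of 6 (median -0.47). The remaining erythroid gene, the globin gene Hbb-y, went the other way. It averaged 42.3 ± 34.9 CPM in Dyrk1a+/- and 6.85 ± 2.54 CPM in wt (SD, n = 3 each; log2 fold change 2.62, edgeR adjusted p = 0.483). The part of these lists in the results above was not tested.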

How the data were processed

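Forebrain RNA of 3 Dyrk1a+/- and 3 wt embryos was sequenced single-end from ribosomal-depleted, dUTP-stranded libraries, per the labels' protocols, although the labels also name polyadenylated RNA. The authors deposited unnormalised read counts for each Ensembl gene and library. Per the submitters' processing notes the authors used bcl2fastq 2.17.1.14, HISAT2 on GRCm38/mm10, SAMtools 1.9 and HTSeq 0.9.1; neither the annotation release nor the strand setting is given in the sources used here. Symbols, positions and union exon lengths came from GENCODE M21 (32888 of 33084 identifiers matched), and promoter sequences from RefSeq on GRCm38.p6.

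The tests were run with edgeR 4.0.16 (R 4.3.3): filterByExpr, TMM scaling, a quasi-likelihood fit with genotype as the term, and Benjamini-Hochberg adjustment over 19403 genes at a threshold of 0.05. DESeq2 1.42.0, other scaling, no filter, a robust fit, a replicate block, a term for a library pair and leaving out libraries were alternatives. The F statistic gave standard errors and 95% intervals. No library copied another (chi-square over degrees of freedom between any 2 libraries, 4.81 to 33.3). Totals ran from 18699434 to 32865708. The 27 genes and all lists were chosen with earlier results of these data known. All 27 are named whatever their values; of other lists, up to 3 genes of lowest unadjusted p.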

Additional observations from a re-analysis of the deposited data

How the results depend on the processing

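No GABA or glycine gene passed the threshold in any of the 13 alternative fits, and the median log2 fold change of the 27 stayed between -0.18 and -0.10. Over all genes, 2 passed edgeR's test; 27 did with DESeq2, 4 with no low-count filter, 6 with a term for the library pair, 6 in the 4 other libraries alone, and 0 to 5 with 1 library left out. Members at an unadjusted p under 0.05 numbered 4, and 9 with the pair term; with 1 library left out they numbered 2 (without wt replicate 1, wt replicate 2 or Dyrk1a+/- replicate 3) to 9 (without wt replicate 3), with 7 without Dyrk1a+/- replicate 1; in these fits 4.11% to 10.5% of all tested genes were at that level. Replicate numbers did not pair the samples: deviations of same-numbered libraries correlated at 0.20, -0.33 and -0.17, and not every library correlated best with its own number. With the replicate block 0 genes passed, and 3 members were at an unadjusted p under 0.05, as were 5.72% of all tested genes.

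Signs turned only where a library was left out and only in genes near 0: log2 fold changes ran from -0.0087 to 0.054 for Abat, -0.061 to 0.060 for Gphn, -0.081 to 0.12 for Slc12a2, -0.089 to 0.0057 for Clptm1, -0.028 to 0.13 for Gabarap and -0.12 to 0.011 for Lhfpl4. The cause was not tested. Gabrd had 172 counts in all, and its log2 fold change ran from -0.69 to -0.20. The ratio of Gad2 to Gad1 differed by 0.11 to 0.20 and that of Slc12a2 to Slc12a5 by 0.044 to 0.35 with 1 library left out.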
